A study of Mus musculus with 473 samples.

Results

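P7.FB.1 is the name in the labels of a cluster of 26 cells from the forebrain of mice at postnatal day 7 (P7). The cells were taken by that label out of 473 in the series, and they are set here against the 55 cells labelled P7.FB.2, the other cluster of the same dissection. Both clusters come from Th:EGFP mice, line Tg(Th-EGFP)DJ76Gsat/Mmnc, in which a bacterial artificial chromosome drives enhanced green fluorescent protein (eGFP) under the control of the gene for tyrosine hydroxylase. Sires were hemizygous for the transgene and dams were wild-type Swiss Webster mice. Forebrain tissue (the labels specify hypothalamus for the embryonic dissection) of 5 fluorescent pups was pooled, dissociated with papain and sorted for eGFP, and single cells were read by Smart-Seq2, which primes on poly(A) tails and covers whole transcripts. All animals carried the transgene and none was treated, so the comparison is between cell groups of 1 pool. The clusters are those of the authors, made from the expression of these same cells, and the values below are therefore a description with no test, p-value or standard error. An SD is the spread over cells, and values are in FPKM, which scales sequenced fragments to the length of the transcript and to the reads of the cell.

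Growth hormone-releasing hormone (GHRH) is a peptide of neurons in the arcuate nucleus of the hypothalamus. It is released into the portal blood of the median eminence and acts on the pituitary, where it drives the synthesis and release of growth hormone, while somatostatin opposes it. Growth hormone feeds back on the hypothalamus through its receptor, and ghrelin acts through a receptor of its own on the same axis. A part of the arcuate GHRH neurons also makes tyrosine hydroxylase and galanin, and in the mouse the homeodomain factor Gsx1 is needed for their development.

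The 250 bases before the annotated starts of Ghrh, Gal (galanin) and Gsx1 are shown because these peptide genes and this transcription factor were found together in most P7.FB.1 cells; the sequences are from RefSeq (build GRCm38.p6). All are written 5′ to 3′ on the strand of the gene. Capitals mark TAAT, the core recognised by many homeodomain proteins, on either strand (ATTA where it lies on the opposite strand). RefSeq gives 2 starts for Ghrh, and the files do not say which of them the cells used.
Ghrh, downstream start, chr2:157337427-157337676, minus strand: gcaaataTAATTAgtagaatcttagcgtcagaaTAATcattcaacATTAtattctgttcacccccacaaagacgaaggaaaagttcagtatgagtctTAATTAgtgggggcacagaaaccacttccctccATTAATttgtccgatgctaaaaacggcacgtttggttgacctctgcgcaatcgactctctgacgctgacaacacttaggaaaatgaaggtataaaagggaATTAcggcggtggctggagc
Ghrh, upstream start, chr2:157346656-157346905, minus strand: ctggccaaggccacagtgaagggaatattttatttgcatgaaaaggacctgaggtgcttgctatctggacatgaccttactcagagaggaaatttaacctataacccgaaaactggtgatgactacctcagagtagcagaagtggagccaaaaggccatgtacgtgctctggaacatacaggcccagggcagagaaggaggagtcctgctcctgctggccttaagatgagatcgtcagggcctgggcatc
Gal, chr19:3414545-3414794, minus strand: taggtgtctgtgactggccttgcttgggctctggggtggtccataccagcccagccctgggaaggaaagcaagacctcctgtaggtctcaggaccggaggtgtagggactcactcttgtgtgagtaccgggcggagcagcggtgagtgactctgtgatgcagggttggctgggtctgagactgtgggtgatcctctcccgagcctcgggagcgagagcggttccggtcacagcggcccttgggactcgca
Gsx1, chr5:147188446-147188695, plus strand: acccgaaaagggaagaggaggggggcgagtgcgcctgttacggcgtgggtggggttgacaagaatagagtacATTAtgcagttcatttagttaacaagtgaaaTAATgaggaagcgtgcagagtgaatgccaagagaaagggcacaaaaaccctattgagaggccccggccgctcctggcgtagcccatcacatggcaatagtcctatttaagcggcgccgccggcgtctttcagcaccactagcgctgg
The downstream Ghrh start had 9 matches to TAAT with overlaps counted, Gsx1 had 2, and the upstream Ghrh start and Gal had 0. Of 32851 RefSeq promoter windows of the same length, 54.9% held at least 1 match and 0.673% held 9 or more. AGGTCA, the half-site of several nuclear receptors, was found once before each Ghrh start and in neither of the other windows, against 14.0% of all windows. TGACGTCA and TGANTCA, the sites of CREB and of Fos and Jun, were in none of the 4 windows (1.55% and 6.75% of all windows). The windows of Esr1, Asb4, Ghr and Resp18 were also searched and are not shown. Among them, each Asb4 start had 3 matches to TAAT and the first Esr1 start had 1. The second Ghr start had 1 match to TGANTCA, and these windows held no other match. A match is a run of letters and no evidence of binding.

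The cells lay on 3 library plates of the same pool, called A (TH02_16.18.20), B (TH02_18.20.16) and C (TH02_20.16.18) here, with 9, 10 and 7 cells of P7.FB.1 and 20, 21 and 14 of P7.FB.2. On plates A and C the number of genes in each label matched the column of the same name poorly (correlation over cells -0.0338 and -0.0519) and the column of the same well on the other plate closely (0.999 on each). The columns of these plates were therefore exchanged well by well, and plate B, where the names matched (0.999), was used as it stands. P7.FB.1 cells had a median of 4525 genes in the labels (2720 to 5580), against 5573 (2169 to 7487) in P7.FB.2 cells. The FPKM of a cell did not sum to a fixed total: in kilo-FPKM, the median over P7.FB.1 cells was 186, 487 and 263 on plates A, B and C, against 192, 548 and 298 in P7.FB.2, and the non-coding AY036118 alone gave 32.4%, 11.9% and 22.7% of it in P7.FB.1 and 31.7%, 10.7% and 20.5% in P7.FB.2. Levels therefore differ in scale between plates, and folds are also given plate by plate. 1 cell of P7.FB.1, in well E06 of plate B, stood apart from the other 25. It was listed at 0 for Ghrh, Esr1, Gal and Gsx1, had the fewest genes of the cluster (2720), and had 2093 FPKM of Th, 547 of Gad1 and 672 of Lhx6, a factor of forebrain interneurons that was found in no other cell of the cluster. It is kept in the values below. Folds or counts that it moves by over 1.5 times are given without it as well. SDs and lowest or highest values that it moves are not always given without it.

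Ghrh was the gene with the largest fold in favour of P7.FB.1. It ranged over 0, a median of 3311 and 12523 FPKM in P7.FB.1, against 0, 0 and 2178 in P7.FB.2 (lowest, median and highest). The means were 4611 ± 3545 FPKM in P7.FB.1 (SD, n = 26 cells) and 95.4 ± 349 in P7.FB.2 (n = 55), and the log2 fold of the means, each plus 1, was 5.58. Apart from the cell in well E06, every P7.FB.1 cell had at least 688 FPKM. Within these 25 cells Ghrh was among the 10 most abundant features in 24, and it made up 0.292 to 2.43% of all FPKM (median 1.37%). Over the cluster mean only AY036118 and Gm42418 stood above it, and in P7.FB.2 it was number 556. The gene lies on chromosome 2, 157329497 to 157347506, minus strand (GRCm38).

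Esr1 encodes oestrogen receptor alpha, through which oestrogens act on arcuate neurons. Its lowest, median and highest values were 0, 37.0 and 229 FPKM in P7.FB.1 and 0, 0 and 30.95 in P7.FB.2. A gene was counted as found in a cell where its value was 1 FPKM or above. Esr1 was found in 25 of 26 P7.FB.1 cells (96.2%, exact Clopper-Pearson 95% interval 80.4 to 99.9%) and in 3 of 55 P7.FB.2 cells (5.45%, 1.14 to 15.12%). The interval covers counting error only. The log2 fold was 4.84, and 4.48, 5.06 and 4.94 on plates A, B and C, the narrowest spread among the 5 genes highest by fold. 1 P7.FB.2 cell gave 55.3% of the Esr1 total of that cluster; without it the log2 fold was 5.31. The same cell had 3513 FPKM of Slc6a3, the dopamine transporter, and 58.7 of the midbrain factor Pitx3, and gave 67.5% of the P7.FB.2 total of Ghr, the growth hormone receptor.

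Galanin and Gsx1 were found in nearly all the P7.FB.1 cells that had Ghrh. Gal had 0, a median of 1080 and 5128 FPKM in P7.FB.1, against 0, 8.65 and 2347 in P7.FB.2, and its means were 1381 ± 1110 and 154 ± 439. The ranges overlap, since Gal was found in 31 of 55 P7.FB.2 cells. Gsx1 had 0, 43.8 and 139 FPKM in P7.FB.1 and 0, 0 and 82.3 in P7.FB.2, with means of 51.02 ± 40.8 and 4.57 ± 14.3. All 4 genes were found together in 23 of 26 P7.FB.1 cells, 3 of them in 2 cells, and none in the cell of well E06. Of 55 P7.FB.2 cells, 1 had all 4, 3 had 3, 10 had 2, 26 had 1 and 15 had none. Ghrh itself was found in 17 P7.FB.2 cells, at or above 100 FPKM in 7 and at or above 1000 in 2; of these 17, 9 had Gal, 3 had Gsx1, 1 had Esr1 and 16 had Th. Without these 17 cells the log2 fold of Esr1 was 4.95.

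**Figure D1:**
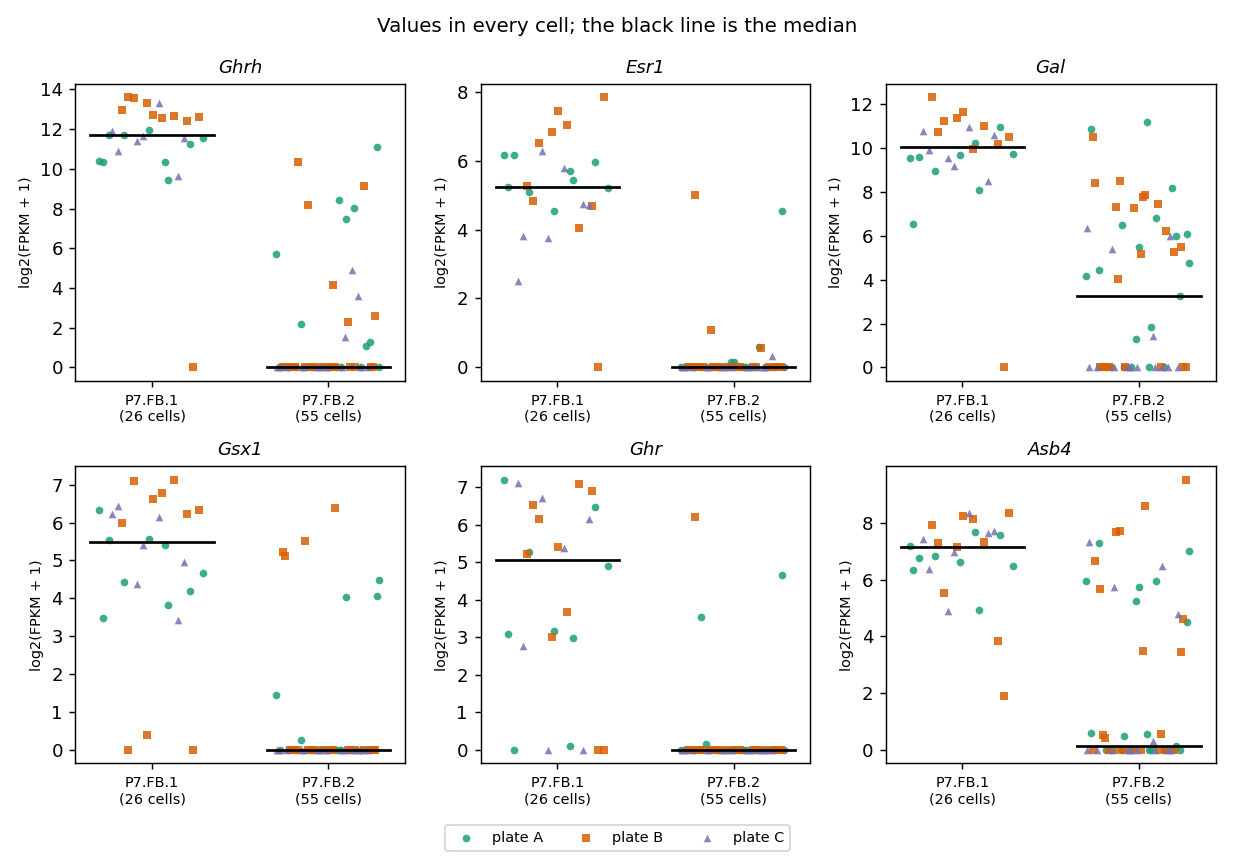
Each point is 1 cell, at log2(FPKM + 1) on the vertical axis, for 6 genes, with the 26 P7.FB.1 cells left of the 55 P7.FB.2 cells; colour and shape give the library plate and the line is the median. Ghrh lies at or above 688 FPKM in 25 P7.FB.1 cells and at 0 in the cell of well E06, while Asb4 is found in all 26.

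Of 11993 genes with a mean of at least 1 FPKM in either cluster, 1329 (11.1%) were at least 2-fold higher in P7.FB.1 and 2267 (18.9%) at least 2-fold lower. On each of the 3 plates, 151 (1.26%) were at least 2-fold higher and 517 (4.31%) at least 2-fold lower. The median log2 fold over all these genes was -0.10, and the lower number of genes per P7.FB.1 cell stands beside this imbalance. Among the 26 P7.FB.1 and 26 P7.FB.2 cells with 2720 to 5580 genes, the median was 0.23 and 2408 genes were at least 2-fold higher. The 20 genes of P7.FB.1 named here had the largest folds among 641 with a mean of at least 20 FPKM, found in at least 50% of P7.FB.1 cells and with under 50% of their total from 1 cell. The 641 were also higher on every plate and in the mean of log2(FPKM + 1). A P7.FB.1 cell had a median of 16.5 of these 20 genes (4 to 19), or 17 (12 to 19) without the cell of well E06, against 4 (1 to 14) in a P7.FB.2 cell. The naming rule asked for presence in P7.FB.1 cells and ranked by fold, so this gap follows in part from the choice.

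After Ghrh and Esr1 came Slc18a3, the vesicular acetylcholine transporter, with 36.1 ± 53.4 FPKM in P7.FB.1 and 1.14 ± 5.15 in P7.FB.2 (log2 fold 4.12). It was found in 17 of 26 and 3 of 55 cells. Slc18a3 lies on the same strand within the span of Chat, the gene for choline acetyltransferase (chromosome 14), without shared exons. Chat was found in 5 of 26 P7.FB.1 cells, 4 of which had Slc18a3, and was listed at 0 in all 55 P7.FB.2 cells, and 13 P7.FB.1 cells had the transporter without the enzyme.

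Arhgap36, known as an inhibitor of protein kinase A and an activator of Gli factors, had 0, a median of 222 and 1107 FPKM in P7.FB.1 against 0, 5.13 and 176 in P7.FB.2 (log2 fold 3.82). Npy1r (3.88), the Y1 receptor of neuropeptide Y, Ghr (3.98), the small GTPase Rrad (3.74), the phospholipase D family member Pld5 (3.72) and Ppp1r17 (3.51), an inhibitor of protein phosphatases, followed. Rasgrp1 (2.45), an exchange factor for Ras, the glucocorticoid receptor Nr3c1 (2.78), the GABA-A receptor subunit Gabre (2.56) and the calcium-binding secretagogin, Scgn (2.89), were also among them. Mbnl3 (3.69) is an RNA-binding splicing factor, Ccdc28a (2.87) a coiled-coil protein, Btg3 (2.45) an anti-proliferative factor, Fos (2.27) an immediate early transcription factor and Stx18 (2.23) a syntaxin of the endoplasmic reticulum. Exons of Rrad, Btg3 and Stx18 overlap genes on the opposite strand (Gm33023, Cxadr, and Gm42858 and Nsg1), and Smart-Seq2 does not keep the strand, so their reads cannot be told apart from those of their partners. Nr3c1, Ppp1r17 and Stx18 were highest in the cell of well E06; without it their log2 folds were 2.23, 3.09 and 1.74. On single plates Rasgrp1 (0.87) and Stx18 (0.57) on plate A and Btg3 (0.83) on plate C stayed under 2-fold.

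**Figure D2:**
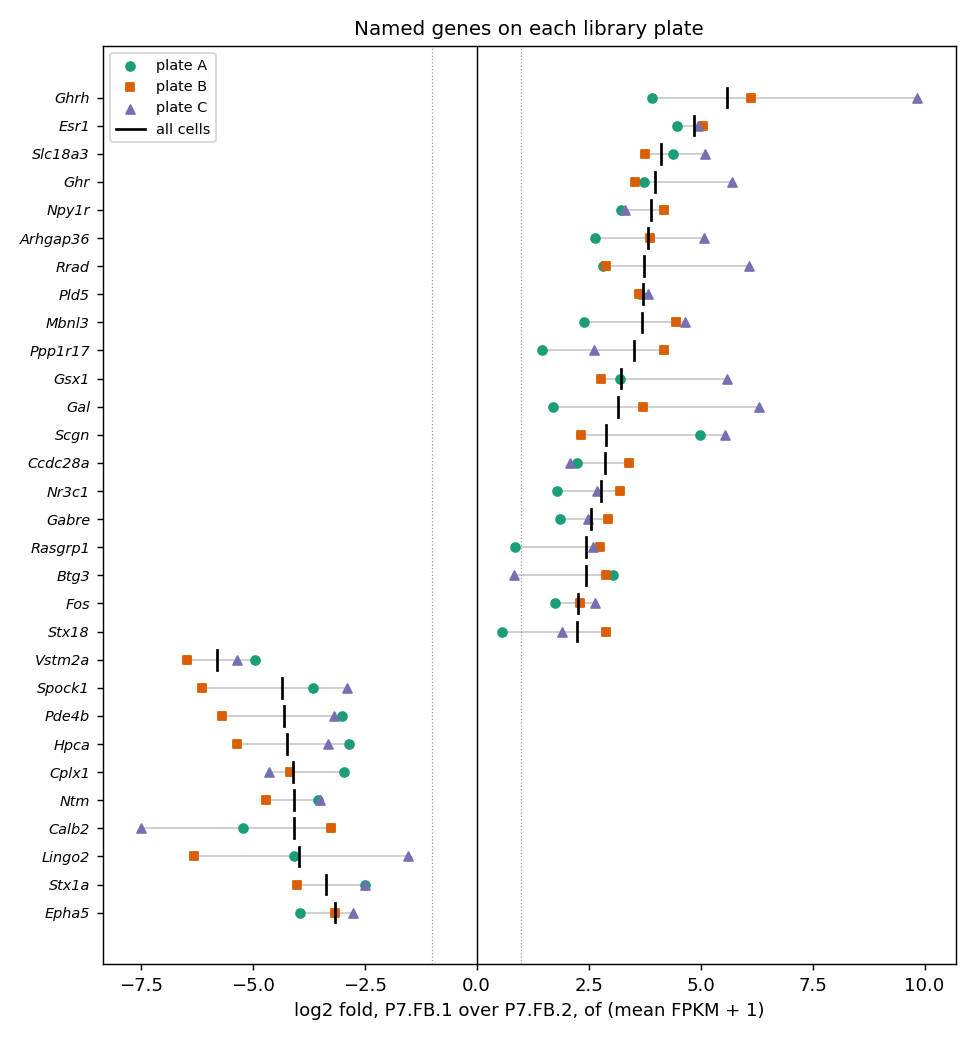
The log2 fold of P7.FB.1 over P7.FB.2, of mean FPKM plus 1, is plotted for the 20 genes named for P7.FB.1 (above) and the 10 named for P7.FB.2 (below); coloured symbols are the 3 library plates, black bars all cells and dotted lines 2-fold. Ghrh spreads from 3.92 on plate A to 9.82 on plate C, while Esr1 and Pld5 lie close together on the 3 plates.

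Receptors of the growth hormone axis and its neighbours were mixed. Of 12 such genes 9 had a mean of at least 1 FPKM, and 4 were at least 2-fold higher in P7.FB.1 and 2 lower (median log2 fold 0.89, against -0.10 over all genes). Over all genes 11.1% were higher and 18.9% lower. Ghr had 0, a median of 32.8 and 146 FPKM in P7.FB.1 and 0, 0 and 73.1 in P7.FB.2. It was found in 20 of 26 P7.FB.1 cells and 3 of 55 P7.FB.2 cells, and its log2 fold of 3.98 was 4.83 without the P7.FB.2 cell with the most Slc6a3. Ghsr, the ghrelin receptor (2.45), was found in 11 of 26 and 4 of 55 cells, and 10 of these 11 P7.FB.1 cells also had Ghr. Ghsr, Glp1r, Pgr, Sstr5, Npy5r, Lepr, Prlr, Pcsk2, Sox2, Drd2, Slc17a6 and Chat, whose means were under 10 FPKM in both clusters, and Dlx1, Isl1, Gad1 and Gad2, which were within 2-fold, were chosen after their values were seen. Sstr5, a somatostatin receptor, had a log2 fold of 2.32 (7 of 26 and 4 of 55 cells), and the leptin receptor Lepr was found in 2 of 26 and 1 of 55. Sstr1, another somatostatin receptor, was at -1.91 with 5 of 26 and 19 of 55 cells. Prlr, the prolactin receptor, was found in no P7.FB.1 cell, which by the rule of 3 counts (3 of 26 cells) allows a share of up to 11.5%, against 12 of 55 P7.FB.2 cells. Downstream of cytokine-type receptors, 2 of 15 genes of JAK-STAT signalling were at least 2-fold higher and 3 lower (median 0.16), near the 11.1% and 18.9% of all genes. Socs2, a feedback inhibitor of growth hormone signalling, had 20.9 ± 26.8 FPKM in P7.FB.1 and 6.00 ± 13.8 in P7.FB.2 (log2 fold 1.64, and 1.69, 1.60 and 1.69 on the plates). Socs2 was found in 13 of the 20 P7.FB.1 cells with Ghr and in 1 of the 6 without it, the cell of well E06 among these 6. In P7.FB.2 it was found in 1 of the 3 cells with Ghr and in 14 cells without Ghr.

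Steroid and nuclear receptors split in both directions, with 7 of 23 at least 2-fold higher and 8 lower (median -0.41), against 11.1% and 18.9% of all genes. Beside Esr1, the higher ones included Nr3c1 with 26.6 ± 47.6 FPKM in P7.FB.1 and 3.02 ± 6.44 in P7.FB.2, the progesterone receptor Pgr (log2 fold 2.04, 14 of 26 and 16 of 55 cells), Nr1d1 (1.91), a repressor of the circadian clock, and Nr4a1 (1.73), an orphan receptor of the immediate early class. Esr1, Nr3c1, Pgr and Nr4a1 were at least 2-fold higher on each plate. Nr1d1 had a log2 fold of 0.19 on plate A. Without the cell of well E06 Nr3c1 had 17.9 ± 17.3 FPKM in P7.FB.1. Among 25 receptors of neuropeptides and peptide hormones, 6 were at least 2-fold higher and 9 lower (median -0.09), against 11.1% and 18.9% of all genes. The highest of them, Npy1r, had 0, a median of 11.1 and 140 FPKM in P7.FB.1, against 0, 0 and 35.6 in P7.FB.2, and was found in 18 of 26 and 4 of 55 cells. Npy5r, a second receptor of the same peptide, was found in 6 P7.FB.1 cells, all of which had Npy1r. Glp1r, the receptor of glucagon-like peptide 1, was at 2.58 (13 of 26 and 4 of 55 cells). Calcr, the calcitonin receptor, had 0, 54.99 and 337 FPKM in P7.FB.1 and 0, 0 and 275 in P7.FB.2 (log2 fold 1.57); it was at 0.61 on plate A and at 0.87 in the cells with shared gene numbers. The receptors Trhr of thyrotropin-releasing hormone (1.22) and Tacr1 of substance P (1.05) had smaller folds, and the opioid receptor Oprk1 was at -2.34 (2 of 26 and 14 of 55 cells).

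**Figure D3:**
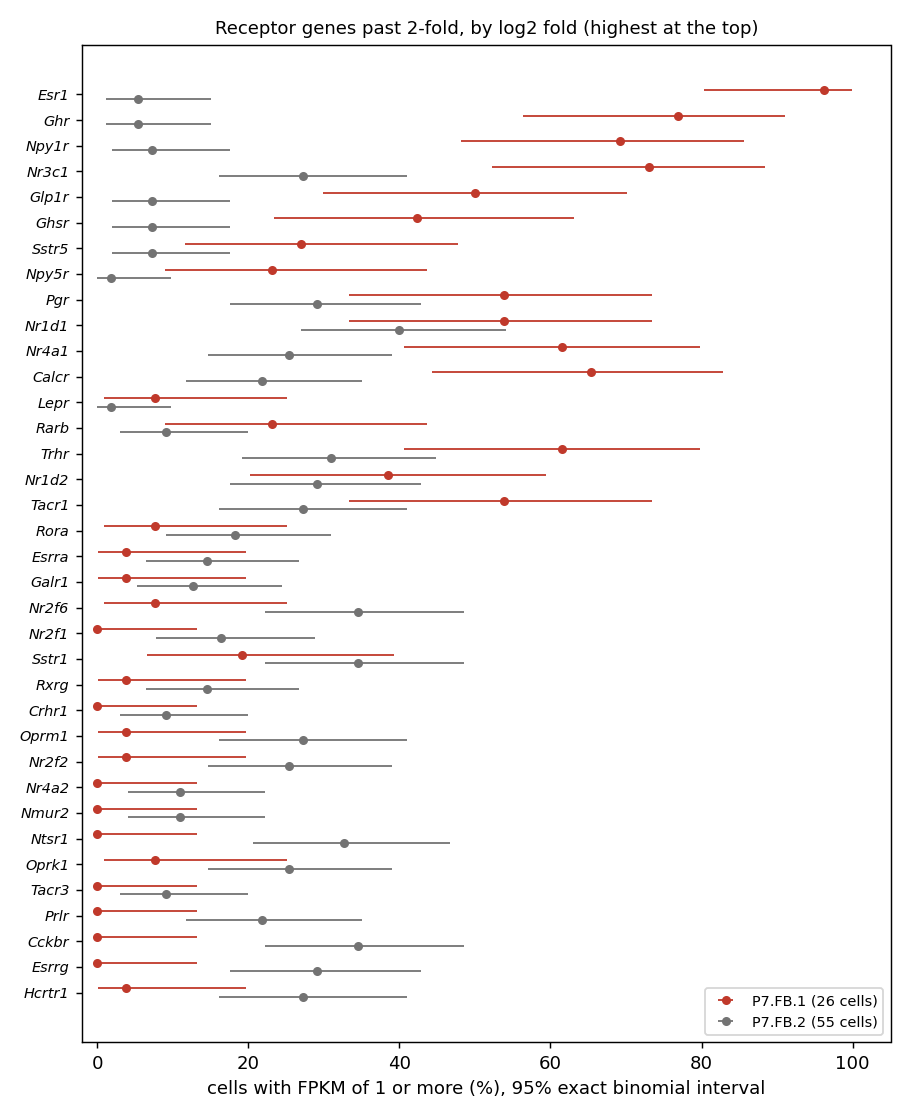
Share of cells (%) in which a gene was found, with exact 95% intervals, for the 36 receptor genes of the hormone-axis, steroid and nuclear, and peptide receptor lists past 2-fold, ordered by log2 fold with the highest at the top; P7.FB.1 is red and lies above P7.FB.2, grey. Esr1 is at 96.2% of P7.FB.1 cells and 5.45% of P7.FB.2 cells.

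Of 19 hypothalamic peptide genes with a mean of at least 1 FPKM, 6 were at least 2-fold higher and 8 lower (median -0.30), against 11.1% and 18.9% of all genes, and Ghrh and Gal were the ones higher on each plate. Cartpt, the precursor of the CART peptides, was found in 13 of 26 and 8 of 55 cells (log2 fold 1.29, but -1.09 on plate C), and 1 cell gave 70.0% of its P7.FB.2 total. Trh (1.26) and Pdyn (1.35), the precursors of thyrotropin-releasing hormone and dynorphin, were found in 10 and 7 P7.FB.1 cells. Sst, somatostatin, had no P7.FB.1 value above 1.08 FPKM, against 592 ± 2769 and a highest cell of 19282 in P7.FB.2, where 18 of 55 cells had it (log2 fold -9.05). 1 cell gave 59.3% of that total, and with the highest cell of each cluster left out the log2 fold was -7.84. Npy was found in 4 of 26 and 10 of 55 cells (-6.94), and 1 cell gave 66.1% of its P7.FB.2 total; Tac1 was at -3.71, Adcyap1 at -4.41 and Cck at -5.40.

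Genes for making and storing peptides were mostly alike in level. Of 24 with a mean of at least 1 FPKM, 18 were within 2-fold, 3 higher and 3 lower (median 0.04), against 11.1% higher and 18.9% lower over all genes. Resp18, a protein of dense-core vesicles, had 0, a median of 938 and 4596 FPKM in P7.FB.1 and 0, 294 and 1881 in P7.FB.2 (log2 fold 1.54, at least 1.39 on each plate). Pcsk1n, the inhibitor of prohormone convertase 1, was found in every cell of both clusters (1.01). Scgn was found in 24 of 26 P7.FB.1 and 5 of 55 P7.FB.2 cells, and 1 cell gave 79.7% of its P7.FB.2 total; with the highest cell of each cluster left out its log2 fold was 4.68. The lower ones were Rab27b (-1.96), Vgf (-1.44) and Pcsk2.

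Gsx1 was the only one of 12 arcuate and GHRH-neuron transcription factors that was at least 2-fold higher in P7.FB.1, and 7 were lower (median -1.08). Over all genes 11.1% were higher and 18.9% lower. The homeodomain factors Dlx1 and Isl1, known in developing GHRH neurons of the mouse, were within 2-fold (-0.22 and -0.40) and were found in 25 and 22 of 26 P7.FB.1 cells, against 44 and 35 of 55 P7.FB.2 cells. 1 cell, that of well E06, gave 45.6% of the Dlx1 total of P7.FB.1; without it the log2 fold was -1.02. Six6 (-3.10) and Dlx5 (-1.23) were lower. Among 27 other hypothalamic and forebrain factors 2 were higher and 18 lower (median -1.25), against 11.1% and 18.9% of all genes. On each plate 9 were lower, against 4.31% of all genes. The higher ones were Lhx6 (3.10) and Sox2 (1.19), each found in 1 P7.FB.1 cell. In the cells of shared gene numbers, where 2408 of all genes were higher (1329 in all cells), 3 were higher and 11 lower. Without the cell of well E06 0 were higher and 20 lower, and Lhx6 was at -1.65. Meis2, a homeodomain factor of striatal and olfactory lineages, had no P7.FB.1 value above 0.235 FPKM and was found in 22 of 55 P7.FB.2 cells (-4.79), and Etv1 was at -2.96.

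Th was measured in every P7.FB.1 cell, at 46.1 to 2093 FPKM (median 280), and in 51 of 55 P7.FB.2 cells, at 0 to 4569 FPKM (median 81.7). The means were 424 ± 467 FPKM in P7.FB.1 and 411 ± 878 in P7.FB.2 (log2 fold 0.04). The sign was not stable: the log2 fold was -0.35, -0.14 and 1.60 on plates A, B and C, -0.20 without the cell of well E06, and 1.40 in the cells of shared gene numbers. The eGFP transcript was found in 17 of 26 P7.FB.1 and 38 of 55 P7.FB.2 cells. Of 12 genes of the dopamine pathway with a mean of at least 1 FPKM, Th itself among them, 0 were at least 2-fold higher and 7 lower (median -1.21). Over all genes 11.1% were higher and 18.9% lower. On each plate 5 of the 12 were lower, against 4.31% of all genes. In the cells of shared gene numbers, where 2408 of all genes were higher (1329 in all cells), 1 was higher and 5 lower. Ddc, which converts L-DOPA into dopamine, had 0, a median of 12.5 and 423 FPKM in P7.FB.1 and 0, 6.15 and 1072 in P7.FB.2 (log2 fold of the means -1.25, of the medians 0.92, and of the means in the cells of shared gene numbers -0.44). It was found in 15 of 26 and 30 of 55 cells, so the shares were close and the means differed through the highest cells. Slc18a2, the vesicular monoamine transporter, was found in 8 of 26 P7.FB.1 cells, none above 32.4 FPKM, against 28 of 55 P7.FB.2 cells with up to 803 (-3.14). Gch1, the first enzyme of tetrahydrobiopterin synthesis, was found in 2 of 26 and 11 of 55 cells (-3.69), and the autoreceptor Drd2 in 0 of 26, with the same limit of 11.5%, and 16 of 55 (-3.10). Slc6a3 was at -4.68, but 1 P7.FB.2 cell gave 92.5% of the total of that cluster, and the log2 fold was -1.20 without it.

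**Figure D4:**
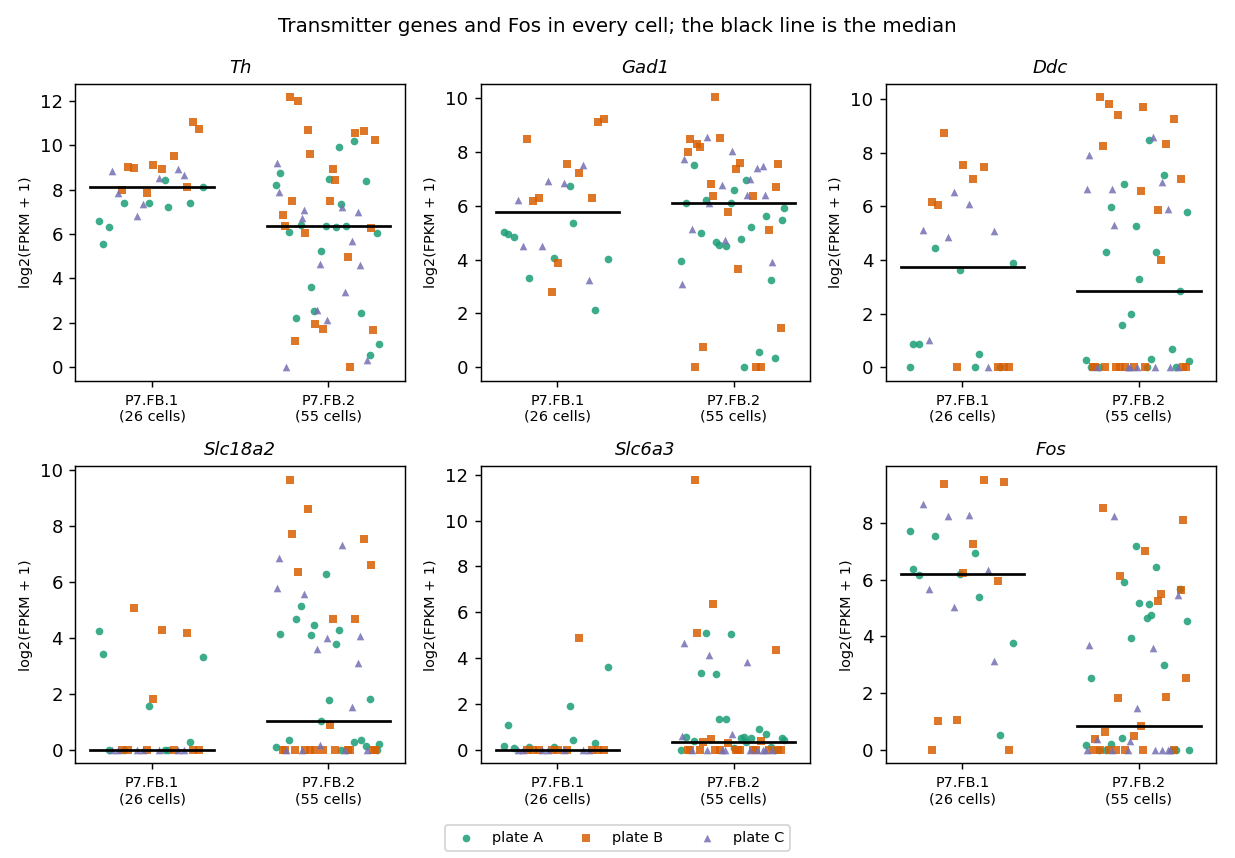
Each point is 1 cell at log2(FPKM + 1) for Th, Gad1, Ddc, Slc18a2, Slc6a3 and Fos, with P7.FB.1 left of P7.FB.2; colour and shape give the plate and the line is the median. Th is at 46.1 FPKM or above in all 26 P7.FB.1 cells, while Slc18a2 is found in 8 of them.

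GABA genes were found in most cells of P7.FB.1. Gad1, which makes GABA, had 3.36, a median of 55.5 and 593 FPKM in P7.FB.1 and 0, 66.9 and 1045 in P7.FB.2 (log2 fold -0.05) and was found in 26 of 26 and 48 of 55 cells. Gad2 was at -0.96. Slc17a6, the vesicular glutamate transporter of the hypothalamus, was found in 0 P7.FB.1 cells and 6 P7.FB.2 cells. Among 37 receptor subunits for GABA, glycine and glutamate, 3 were higher and 12 lower (median -0.67), against 11.1% and 18.9% of all genes. The higher ones included a pair of GABA-A subunits encoded on the X chromosome, Gabre with 84.4 ± 55.4 FPKM in P7.FB.1 and 13.5 ± 23.5 in P7.FB.2, and Gabrq with 53.7 ± 54.1 and 10.8 ± 17.9. Both were found together in 24 of 26 P7.FB.1 cells and 14 of 55 P7.FB.2 cells. Grik1, a kainate receptor subunit, was at 1.64 and 0.86 without the cell of well E06. Glra2, a glycine receptor subunit, was listed at 0 in all 26 P7.FB.1 cells and found in 30 of 55 P7.FB.2 cells; Gabrb2 (-3.75) and Gabra5 (-1.58) were lower.

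Of 27 imprinted genes with a mean of at least 1 FPKM, 22 were within 2-fold, 4 higher and 1 lower (median -0.03). Over all genes 11.1% were higher and 18.9% lower. Without the cell of well E06 3 imprinted genes were higher and 4 lower. Asb4, a ubiquitin ligase subunit of arcuate neurons, had 2.77, a median of 142 and 328 FPKM in P7.FB.1, against 0, 0.105 and 731 in P7.FB.2 (log2 fold 1.65); it was found in 26 of 26 and 20 of 55 cells. Dlk1, a Notch ligand homologue, was found in 23 of 26 and 24 of 55 cells (1.47, and at least 1.29 on each plate). Asb4 and Dlk1 were at least 2-fold higher on every plate. Of 25 calcium, sodium and Hcn channel genes 4 were higher and 7 lower (median -0.51), or 1 and 7 without the cell of well E06. Of 38 potassium channel genes 4 were higher and 7 lower (median -0.27). Against the shares over all genes, 11.1% higher and 18.9% lower, the potassium channel counts did not stand out. Scn9a, the sodium channel Nav1.7, had 17.04 ± 21.8 FPKM in P7.FB.1 and 5.40 ± 10.3 in P7.FB.2. It was found in 21 of 26 and 20 of 55 cells. Without the cell of well E06 it had 13.6 ± 13.2 FPKM in P7.FB.1.

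Of 15 immediate early and dissociation stress genes with a mean of at least 1 FPKM, 9 were at least 2-fold higher and 0 lower (median 1.22), against 11.1% and 18.9% of all genes. Without the cell of well E06 8 were higher. On each plate 4 of them were, against 1.26% of all genes. Fos had 0, a median of 72.4 and 731 FPKM in P7.FB.1 and 0, 0.805 and 370 in P7.FB.2, and was found in 23 of 26 and 27 of 55 cells. Egr1 had 64.9 ± 123 FPKM in P7.FB.1 and 15.4 ± 37.9 in P7.FB.2 (log2 fold 2.01), and Junb, Btg2 and Dusp1 were at 1.17, 1.81 and 1.22. Dusp1 was at 0.79 without the cell of well E06, and Junb and Dusp1 were at 0.56 and 0.63 in the cells of shared gene numbers. Ier2 was at 3.02, but at 2.02 without the cell of well E06 and at -0.17 without plate B. In the cells of shared gene numbers 2408 of all genes were higher, against 1329 in all cells. Of the 15 immediate early and stress genes, 7 were higher there and 1 lower. These genes follow neuronal activity and also the handling of cells; the part of the dissociation, which both clusters shared, was not tested.

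The side of P7.FB.2 is described by 10 genes chosen by the same rule. Vstm2a, a secreted immunoglobulin-domain protein, had 0.108 ± 0.262 FPKM in P7.FB.1 and 60.1 ± 63.01 in P7.FB.2 (log2 fold -5.78), and was found in 1 of 26 and 44 of 55 cells. Others were hippocalcin, Hpca (-4.23), complexin 1, Cplx1 (-4.09), syntaxin 1A, Stx1a (-3.35), and calretinin, Calb2 (-4.07). Calb2 rested on 1 cell in P7.FB.1, that of well E06, which gave 98.8% of the total; without it the log2 fold was -7.02. Spock1 (-4.34), the phosphodiesterase Pde4b (-4.30), the cell adhesion genes Ntm (-4.08) and Lingo2 (-3.97) and the ephrin receptor Epha5 (-3.16) completed them. Epha5 was at -4.10 without the cell of well E06. Exons of Hpca overlap Tmem54 on the opposite strand. Pan-neuronal genes were within 2-fold in 11 of 14 cases, with 0 higher and 3 lower (median -0.63), against 11.1% and 18.9% of all genes.

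Set among all 13 clusters of the series, P7.FB.1 had the highest mean of 15 of its 20 genes and the highest share of cells of 18. For 13 of the 20 the mean was at least 2-fold above that of the next cluster. The 20 genes were chosen for being high in P7.FB.1, which favours it in these counts. Ghrh had no mean above 6.94 FPKM in the other P7 clusters outside the forebrain, and in the clusters of embryonic day 15.5 (E15.5) it was 89.2 in E15.MB.1, where the highest of 68 cells had 5946, and 23.7 and 24.0 in E15.FB.1 and E15.FB.2. The highest mean of Esr1 elsewhere was 3.51 in P7.MB.3, a midbrain cluster of 10 cells, and that of Gsx1 was 4.57 in P7.FB.2. Some of the other genes were found in further clusters. Ghr was found in 76.9% of P7.FB.1 cells and in 64.1% of the 39 cells of P7.MB.1, at means of 46 and 14.0 FPKM. Scgn had a mean of 102 FPKM in P7.FB.1 and 121 in P7.OB.3, a cluster of the olfactory bulb. Fos, at 167 in P7.FB.1, was at 705 in E15.FB.2 and P7.FB.1 was number 5 of the 13 by mean. Since the means come from cells whose FPKM totals differ between plates, and E15.5 cells were on other plates, the order is a description. Among the 14 P7 forebrain cells without a cluster, Ghrh had a mean of 0.29 and Esr1 was found in none.

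**Figure D5:**
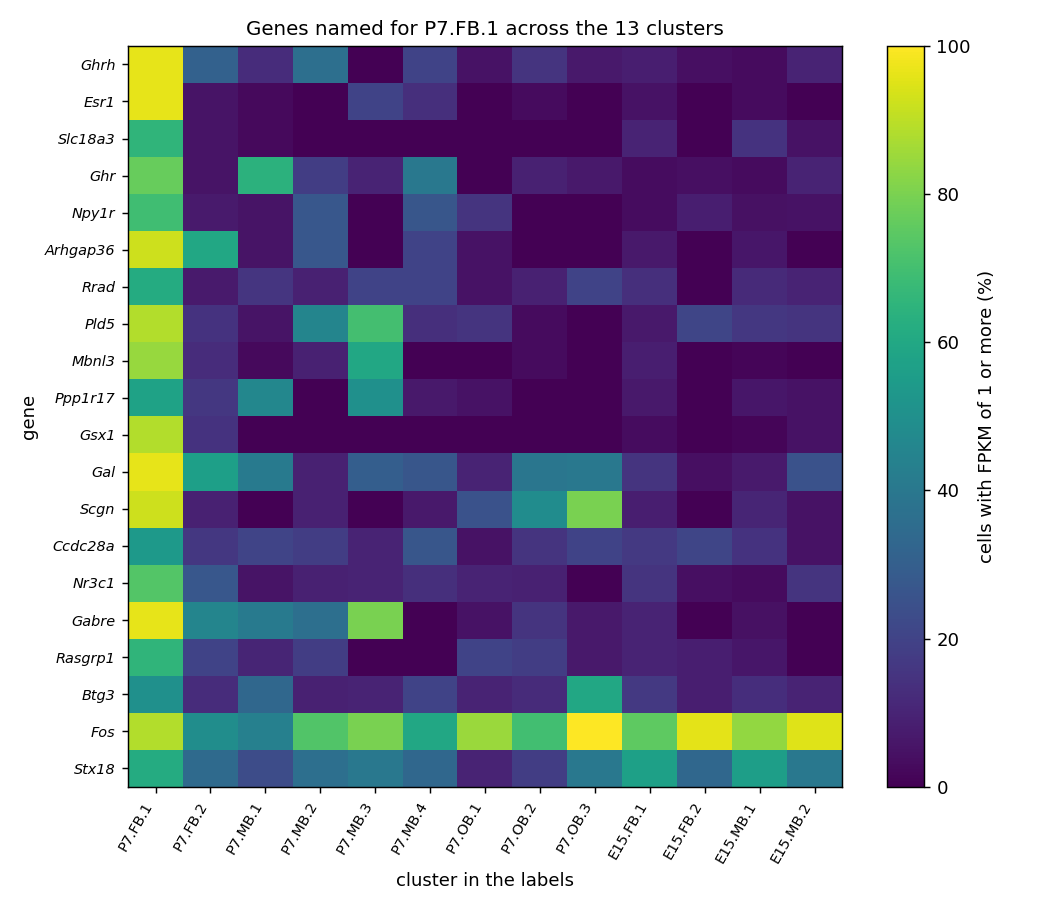
Colour gives the share of cells (%) in which a gene was found for the 20 genes named for P7.FB.1 (rows) in the 13 clusters of the labels (columns, P7.FB.1 at the left). P7.FB.1 has the highest share for 18 of the 20, and other clusters lie above it for Fos and Btg3. The genes were chosen for being high in P7.FB.1, which favours it here.

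Over the 26 P7.FB.1 cells, the 10 genes whose levels ordered the cells most like Ghrh did, of 2597 with a mean of at least 20 FPKM found in at least 50% of the cells, were led by Resp18 (Spearman rho 0.859). B630019K06Rik (0.845), the protease inhibitor Cst3 (0.832), the respiratory chain subunit Uqcr10 (0.832), the peroxidase Gpx3 (0.828), the ATPase Vcp (0.823), Gabarapl1 (0.815), Nrsn1 (0.799), Nenf (0.793) and Pcsk1n (0.791) followed. The cells share the plates' difference in scale. With each cell brought to the same FPKM total, rho was 0.719 for Resp18, 0.702 for Nrsn1 and 0.676 for B630019K06Rik, and 0.455 to 0.642 for the other 7. Gal had 0.763, and 0.482 with equal totals. Esr1 (0.305 and 0.034), Gsx1 (0.399 and 0.108) and Th (0.370 and -0.218) were weaker, so the genes that marked the cluster did not order its cells alike.

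Markers of other cell types were measured as well. Of 9 microglial and 8 cell cycle genes none was found in any P7.FB.1 cell, and of 8 endothelial and pericyte genes 1 was. The summed astrocyte markers ranged from 0 to 131 FPKM in P7.FB.1 (median 4.01) and from 0 to 439 in P7.FB.2 (median 63.2), with Aldoc (-1.83) and Slc1a2 (-3.03) lower. The oligodendrocyte markers summed to a median of 13.02 FPKM in P7.FB.1 and 3.96 in P7.FB.2, with 6 of 10 found in no P7.FB.1 cell. Of 8 tanycyte and ependymal markers 5 had a mean of at least 1 FPKM, of which 2 were higher and 1 lower (median 0.68), against 11.1% and 18.9% of all genes. The sum of the 8 markers ranged from 0 to 166 FPKM in P7.FB.1 (median 7.51) and from 0 to 159.5 in P7.FB.2 (median 5.22). Of 15 genes of midbrain dopaminergic identity 12 were found in no P7.FB.1 cell (26 cells) and 1 in no P7.FB.2 cell (55 cells). Without the P7.FB.2 cell with the most Slc6a3, 6 were found in no P7.FB.2 cell. Of the 15 genes 8 had a mean of at least 1 FPKM. Over all cells 0 of these were at least 2-fold higher in P7.FB.1 and 6 lower (median -1.86), against 11.1% and 18.9% of all genes. In the cells of shared gene numbers, where 2408 of all genes were higher, 1 was higher and 2 lower. The sum of the 15 genes had the higher median in P7.FB.1, at 109 FPKM (12.8 to 344), against 35.7 (0 to 2377) in P7.FB.2. With 12 of the 15 found in no P7.FB.1 cell, that sum rests on the remaining genes.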

How the data were processed

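RNA of single cells was read with Smart-Seq2, with 20 preamplification and 14 enrichment cycles per the labels' protocols. The deposited values are FPKM; the submitters' processing notes name HISAT2, Cuffnorm and build mm10, and versions and the annotation release are not given in the sources used here. FPKM is not a count, read depth per cell is not known from it, and exact 0 values also occur for housekeeping genes (1.28% of their values in P7.FB.1 and 0.909% in P7.FB.2); such a gene is described as listed at 0. Of 28952 features 28636 were given a symbol through the table of gene names, 20508 at the same identifier version, and 14 features share a symbol. Coordinates come from GENCODE M21 (GRCm38, the assembly of mm10). No 2 columns were identical. No doublet caller was run.

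Cells were grouped by the cluster in the labels, with the columns of plates A and C exchanged well by well. Means over cells were compared as log2((mean + 1)/(mean + 1)), which understates the fold of low genes, and a gene counted as found at FPKM of 1 or more. Genes were filtered at a mean of 1 FPKM in either cluster for counts and at 20 FPKM in the higher cluster for names (20 genes of P7.FB.1, 10 of P7.FB.2, and Ghrh, Esr1 and Th); members of the 26 lists were named past 2-fold from a mean of 10 FPKM. With 1 pool there is no test across animals. The fold formula was tested on simulated data with known answers. These data held no plate differences and no outlying cells, so the test covers the formula only. The members and lists were chosen with earlier results of these data known. Python 3.11.15, numpy 2.4.6, pandas 2.3.3 and scipy 1.17.1 were used.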

Additional observations from a re-analysis of the deposited data

How the results depend on the processing

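The 20 genes named for P7.FB.1 kept their direction and stayed past 2-fold under all 14 alternatives that give a log2 fold; 3 of these, without the cell of well E06, without the P7.FB.2 cell with the most Slc6a3 and without the P7.FB.2 cells with Ghrh, were chosen after seeing the data. For Ghrh itself the last of these fixes the direction by its construction. For all 20 the naming rule already required the higher direction on every plate and in the mean of log2(FPKM + 1). The direction on plate B alone and from means of log2 was therefore fixed beforehand, and with 1 plate left out nearly so. The genes were also picked for the largest folds, so their staying past 2-fold is no independent support. The cause of the changes given here was not tested. The log2 fold of Ghrh, 5.58, was 9.69 from means of log2(FPKM + 1), 11.69 from medians and 12.17 without the P7.FB.2 cells with Ghrh, and 4.99 to 6.50 with 1 plate left out. That of Esr1, 4.84, was 5.67 with a pseudocount of 0.1, 5.25 from medians, 4.26 with the columns as named on all 3 plates, 5.31 without the P7.FB.2 cell with the most Slc6a3, and 4.59 to 5.02 with 1 plate left out. The 1329 genes at least 2-fold higher became 382 from means of log2, 600 from medians, 564 with a mean of at least 10, 2065 on plate B alone, 655 when each gene lost its highest cell, 2408 in the cells of shared gene numbers, and 1255 to 1653 with 1 plate left out. The 2267 lower ones became 1246, 744 and 3995 under means of log2, a mean of at least 10 and plate B alone, and 2041 to 3108 with 1 plate left out. With the columns as named, Nr4a1 (-1.14), Trh (-0.43), Cck (0.46), Dlx6 (0.21) and Meis2 (0.36) turned. On plates A and C those columns matched the labels poorly, so this setting cannot tell how stable a fold is. With 1 plate left out, Lhx6 ranged from -1.55 to 4.03, Dlx6os1 from -1.52 to 1.05, Cacna1g from -0.89 to 1.92 and Ier2 from -0.17 to 4.18, each turning without plate B; without the cell of well E06, Lhx6 (-1.65) and Cacna1g (-0.10); with the highest cells left out, Lhx6 (-0.97); from means of log2, Dlx6os1 (0.36) and Cacna1g (-0.14); from medians, Ddc (0.92) and Cacna1g (-0.13); without the P7.FB.2 cells with Ghrh, Dlx6os1 (0.075). Counting any value above 0 as found, 19 of the 20 genes kept the higher share of cells in P7.FB.1. No paired analysis was possible because the cells of both clusters come from 1 pool and no label pairs a cell of one with a cell of the other; the folds within each plate stand with the genes. Read depth is unknown, so a gene listed at 0 in a cell cannot be told apart from one present below detection.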
